A study of Mus musculus with 4 samples.

Results

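Unlabelled dsRed-positive cushion mesenchyme is described here: cells of the embryonic mouse heart that carried cushion mesenchyme transcripts together with the red, unrecombined form of a lineage reporter. The members were 1065 of 42246 barcodes that passed the quality limits (61172 barcodes in all), and numbered 114 in library het 1, 481 in het 2, 214 in KO 1 and 256 in KO 2. A member had at least 1000 genes, under 10% mitochondrial UMIs (unique molecular identifiers, each standing for 1 captured transcript) and under 1% of its UMIs from 8 cardiomyocyte genes. It also had at least 5 UMIs of Postn, Sox9, Prrx1 and Prss35 summed with at least 2 of these genes detected, no UMI of Cdh5, Pecam1 or Emcn, and at most 1 UMI of Tcf21, Col14a1 and Tnxb. Finally, it had at least 5 dsRed UMIs, and EGFP made up at most 0.2 of its reporter UMIs.

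All embryos carried the Rosa26mTmG/+ reporter and the Cdh5(Pac)-CreER+ transgene, a tamoxifen-inducible Cre driven by the promoter of the endothelial cadherin gene Cdh5. Tamoxifen was given at E9.5 and ventricles were collected at E12.5 (embryonic days). The het group was Gata4fl/+ and the KO group Gata4fl/fl, with 2 libraries each, and both groups received Cre and tamoxifen. Whether each library came from a single embryo or from several is not stated in the labels. Transcripts of Xist, which marks female cells, and of Y-linked Ddx3y were both counted in het 1, het 2 and KO 1. Each of those libraries thus held cells of both sexes, more than a single embryo gives. The p-values measure the spread between the libraries, which may be partly technical.

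Cushion mesenchyme fills the swellings that become the valves and septa of the heart. Most of it is known to arise from endocardium by endothelial-to-mesenchymal transition, in which lining cells lose their junctions and move into a matrix rich in hyaluronan and versican. Neural crest and epicardium are known to add further mesenchyme. In the mTmG reporter, Cre switches a cell and its descendants from the red protein to membrane EGFP, so an unlabelled cell is one whose lineage did not recombine the reporter, whether because it was never endothelial after tamoxifen or because recombination missed it. These alternatives cannot be told apart by the reporter transcripts.

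The members were chosen from measured counts, so the values of the genes in the rule are given as a description and carry no test. Postn, which encodes a matrix protein of cushion and valve cells (GRCm38 chr3:54361109-54391037, plus strand), was detected in 114 of 114, 476 of 481, 214 of 214 and 255 of 256 members. Sox9, a transcription factor of cushion and cartilage progenitors (chr11:112782224-112787760), was detected in 87.9 to 97.3% of members per library. Prrx1, a homeobox factor of mesenchyme (chr1:163245119-163313710), was detected in 86.0 to 96.5%, and Prss35 (chr9:86743649-86758443) in 76.3 to 92.1%. All 4 genes were detected together in 63.2%, 67.6%, 73.8% and 84.0% of members of het 1, het 2, KO 1 and KO 2. Postn gave 71.0 to 76.8% of the UMIs that passed the mesenchyme gate, so the gate rested mainly on that gene. At the reporter limit, 28, 49, 29 and 11 members had exactly 5 dsRed UMIs, and 20, 38, 35 and 17 cells that met the other limits were left out with 4.

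Meox1, a homeobox gene of mesenchyme (chr11:101877510-101894374), took no part in the rule but was among the markers that name the members. It is thus no independent check of the name, and its levels overlapped those of EGFP-labelled cushion cells, compared below. With every cell thinned to 5000 UMIs, Meox1 was detected in 52.9, 60.5, 55.0 and 60.9% of members, against 21.0, 28.9, 19.4 and 29.0% of a second dsRed-positive class. That class, called fibroblast-type mesenchyme here, held 697 cells with at least 5 UMIs of Tcf21, Col14a1 and Tnxb, genes of epicardium-derived fibroblasts. Some defining markers of other types were at or near 0 in the members, and other genes of the same lists were not. Sox10, the factor of migrating neural crest and Schwann precursors, had 0, 1, 0 and 2 UMIs. Tfap2b and Foxd3, transcription factor genes of neural crest, had 0 in every library. Myh11, the myosin of mature smooth muscle, had 0, 0, 2 and 0 UMIs. Over the whole lists, members held 917 to 1516 CPM of smooth muscle and pericyte genes, against 1046 to 2013 CPM in fibroblast-type cells, and 1009 to 1198 CPM of neural crest genes, against 364 to 393 CPM. The neural and Schwann list summed to 77.9 to 123 CPM against 38.3 to 49.3 CPM. EGFP-labelled cushion cells, defined below, held 1018 to 1343 CPM of the neural crest list. Their neural and Schwann list summed to 71.8 to 138 CPM, so these list levels were not particular to the members. The part of such cells in the results was not tested. A count of 0 allows up to 1.51, 0.367, 0.853 and 0.442 CPM (UMIs of a gene scaled to a common library total) in the libraries in the order above, for counting error alone.

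Cells of the cushion gate were sorted into sets by limits on their reporter transcripts. Of 2226 cells that passed the mesenchyme, endothelial and fibroblast limits, 1065 were unlabelled. A further 280 were EGFP-labelled by the mirrored limits (at least 5 EGFP UMIs and an EGFP share of at least 0.8). Under 5 EGFP and dsRed UMIs in sum were found in 619, and the other 262, with a sum of at least 5, are called mixed. Just inside the EGFP share limit of the members lay 23, 61, 40 and 15 cells. Just outside it lay 9, 28, 33 and 6, so the limit did not fall in a gap. Among the members, dsRed stood at 543, 708, 634 and 536 CPM and EGFP at 46.2, 54.0, 66.8 and 31.1 CPM (het 1, het 2, KO 1, KO 2, as in all sets of 4 values). The EGFP-labelled cells held 3005 to 3831 CPM of EGFP and 89.5 to 192 CPM of dsRed. These levels were set by the gate. EGFP was detected in 57.0, 58.4, 67.8 and 53.1% of members. In barcodes with at least 3% cardiomyocyte UMIs, a cell type that this Cre should not mark, EGFP stood at 128, 73.6, 67.6 and 34.7 CPM and was detected in 40.6, 44.8, 29.0 and 26.5% of barcodes. The median depth there was 4637, 10796, 5555 and 8395 UMIs, against 15197, 15055, 14102 and 23409 in the members. The members' share with an EGFP UMI was thus higher at a greater depth, while their low EGFP level was fixed by the gate. Whether these UMIs were free RNA was not tested.

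**Figure D1:**
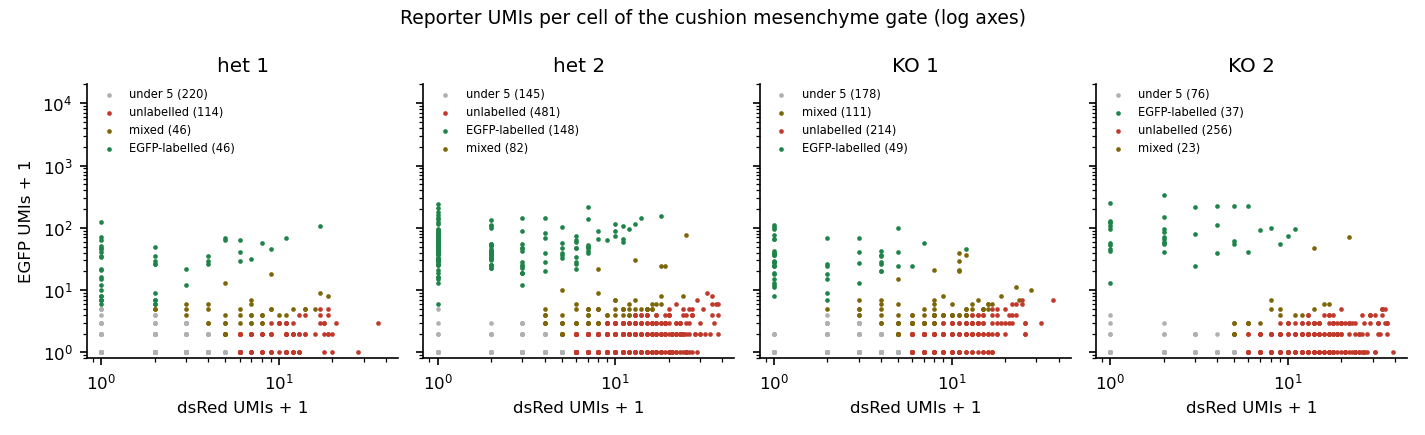
EGFP UMIs against dsRed UMIs (each plus 1, log axes) for every cell of the cushion gate, 1 panel per library. The unlabelled cells (red points, 114, 481, 214 and 256) lie along the lower edge and the EGFP-labelled cells (green, 46, 148, 49 and 37) above them, with mixed cells between.

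The libraries differed in depth and make-up. They held 137890971 to 190207638 UMIs, and 8597 to 23459 barcodes where the labels give 10K loaded cells. Library het 1 had the most barcodes and the smallest share of members. No member barcode was shared between libraries (0 of 1065). Ddx3y, a Y-linked gene, stood at 40.2, 56.7 and 39.2 CPM in the members of het 1, het 2 and KO 1 and had 0 UMIs in KO 2, whereas Xist stood at 504, 299, 605 and 883 CPM, so sex was not balanced between the groups. A few members carried transcripts of other cells: 7, 10, 12 and 4 had at least 5% globin UMIs, with a highest share of 77.9%. Doublets were not called with a separate tool, and barcodes with over 2 times the class median of UMIs were left out as an alternative instead.

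The members were compared with the EGFP-labelled cushion class and with fibroblast-type mesenchyme. Against EGFP-labelled cushion cells, 24 of 10828 genes passed the test (0.222%, edgeR quasi-likelihood test with library as a block, Benjamini-Hochberg adjusted p under 0.05), and 2 of these were the reporters of the gate. Against fibroblast-type mesenchyme, 5248 of 12945 genes passed (40.5%), 2528 higher (19.5%) and 2720 lower (21.0%) in the members. These 2 classes were cut by opposing limits on Tcf21, Col14a1 and Tnxb, and the members also by Postn, Sox9, Prrx1 and Prss35. The direction of genes expressed along with these was thus partly set by the gates, also in the lists below. The number of cells in each class and library also differed between the comparisons, from 37 to 148 labelled and from 62 to 277 fibroblast-type cells, and the difference between the call rates was not tested.

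Within dsRed-positive mesenchyme, most cushion transcription factors were higher in the members than in fibroblast-type cells. Of 28 tested factors of the cushion list that were not in the rule, 24 were higher in the members and 1, Osr1, was lower. The shares over all genes were 19.5% higher and 21.0% lower. The median log2 difference of these factors was 0.78 against −0.004 over all genes. Levels below are CPM scaled by TMM (trimmed mean of M-values) within each comparison. Twist1, a basic helix-loop-helix factor of mesenchyme, stood at 607, 637, 598 and 550 CPM in members of het 1, het 2, KO 1 and KO 2, against 84.1, 89.2, 91.5 and 89.4 CPM in fibroblast-type cells. The member sums of all 4 libraries lay far above those of the other class, with a log2 difference of 2.75 ± 0.06 (SE, n = 4 libraries, edgeR adjusted p = 9.5e-11). Msx1, a homeobox target of BMP signalling, was higher by 4.48 ± 0.12 on the log2 scale (81.4, 129, 82.3 and 108 CPM against 3.12 to 5.78 CPM). Tbx3, a T-box factor of the atrioventricular region, was higher by 3.79 ± 0.12. Meox1 was higher by 1.47 ± 0.11 (251 ± 65.6 CPM against 92.7 ± 36.6 CPM, SD, n = 4), and the library sums did not overlap. Gata4, the floxed gene, was higher by 0.68 ± 0.06 in the members, at 151 ± 15.4 CPM against 95.9 ± 14.9 CPM (SD, n = 4, edgeR adjusted p = 3.3e-06).

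The cushion matrix list split in direction, with 15 of 30 tested members outside the rule higher and 11 lower, against 19.5% and 21.0% of all genes. Vcan, which encodes the proteoglycan versican of the cardiac jelly (chr13:89655312-89742509), stood at 3334, 3067, 3477 and 2985 CPM in the members and at 373, 342, 413 and 305 CPM in fibroblast-type cells. The groups were 3.17 ± 0.05 apart on the log2 scale (edgeR adjusted p = 9.4e-12). Has2, the hyaluronan synthase of the cushions, was higher by 3.01 ± 0.08, and Hapln1, which links hyaluronan to versican, by 4.2 ± 0.16. Adamts5, a protease that cleaves versican, was lower by 3.67 ± 0.12 on the log2 scale, at 7.68 to 12.9 CPM against 124 to 135 CPM.

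Most cartilage-type matrix genes were higher in the members, whereas over all genes 19.5% were higher and 21.0% lower. Of 9 tested genes on that list outside the rule, 8 were higher and 1 lower, with a median of 3.23 on the log2 scale. Col9a1 encodes a chain of the fibril-associated collagen of cartilage. It stood at 252, 234, 281 and 227 CPM in the members and 4.99, 10.1, 9.87 and 4.53 CPM in fibroblast-type cells. Every member sum lay far above the other class, by 5.02 ± 0.14 on the log2 scale. Col9a3 (3.82 ± 0.09) and the matrilin Matn4 (3.37 ± 0.12) were higher too. Over all collagens the list split, with 9 of 22 chains higher and 12 lower. The chains of fibrillar collagen I and of basement membrane collagen IV were among the lower ones, and Col18a1 among the higher (2.34 ± 0.08).

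Genes were also named by size of difference among those in one direction in all 4 libraries. The 10 with the largest excess were Wnt16, Krt79, Dpt, Pla2g5, Sall3, Btn1a1, Rapgef4, Fst, Galnt18 and Tmem132c, at 5.16 to 6.40 on the log2 scale. Wnt16, a Wnt ligand, stood at 71.9 to 99.0 CPM in the members against 0 to 2.19 CPM. Dpt, which encodes the matrix protein dermatopontin and stood on the epicardial and fibroblast list, went against that list at 218, 141, 344 and 152 CPM against 2.07 to 6.30 CPM. Fst encodes follistatin, which binds activin, and was higher by 5.32 ± 0.24. In the other direction stood Lrp2, Dpep1, Dpp4, Spon2, Lrrn4, Adm, Adcyap1r1, Plscr2, Ogn and Gucy1a1, at −6.45 to −5.48 on the log2 scale. Gucy1a1, a subunit of the nitric oxide receptor, stood at 6.70 to 23.3 CPM in the members and 677 to 801 CPM in fibroblast-type cells. Ogn, the proteoglycan osteoglycin, stood at 1.10 to 4.12 CPM against 123 to 134 CPM.

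**Figure D2:**
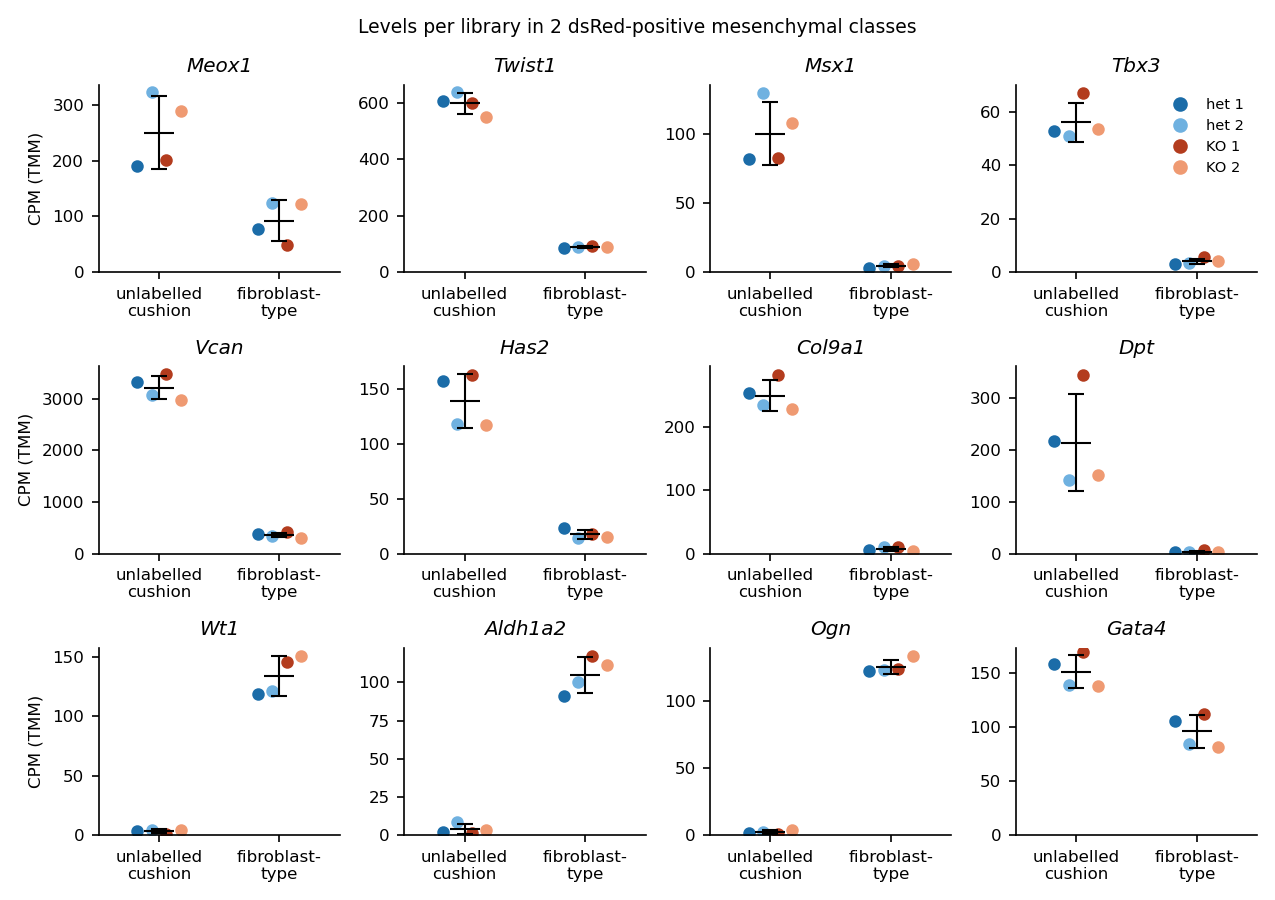
CPM (TMM-scaled) of 12 genes in each library, in unlabelled cushion mesenchyme and fibroblast-type mesenchyme; points are libraries, and black marks are the mean ± SD of 4 libraries. Meox1, Twist1, Msx1, Tbx3, Vcan, Has2, Col9a1, Dpt and Gata4 lie higher in the cushion class, and Wt1, Aldh1a2 and Ogn lower.

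Markers of the epicardium and its derivatives ran the other way, on a list that holds Tcf21, Col14a1 and Tnxb of the opposing limits. Of 19 tested genes on that list outside the rule, 16 were lower in the members and 2, Dpt and Lum, were higher. The shares over all genes were 21.0% and 19.5%. The list had a median of −3.04 on the log2 scale. Wt1, the epicardial zinc-finger factor, stood at 3.61, 4.17, 0.823 and 3.97 CPM in the members and at 118, 121, 146 and 150 CPM in fibroblast-type cells. The retinoic acid synthase gene Aldh1a2 was lower by 4.46 ± 0.25 on the log2 scale. Tbx18, a T-box factor of epicardium, was lower by 1.73 ± 0.16, at 20.0 to 39.7 CPM against 94.1 to 124 CPM.

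Signalling genes were tested by pathway, and the counts stand beside 19.5% of all genes higher and 21.0% lower. In the BMP pathway, which drives cushion formation, 14 of 22 tested genes were higher and 4 lower. Bmp2, the ligand, was higher by 2.17 ± 0.13, the BMP binding protein Bmper by 4.21 ± 0.12 and the target Id1 by 1.09 ± 0.06, whereas the receptor Acvrl1 was lower by 3.96 ± 0.20 on the log2 scale. In the TGF-beta pathway 13 of 20 were higher and 1 lower, with Tgfb2 at 251 to 333 CPM against 136 to 154 CPM. In the Wnt pathway 16 of 29 were higher and 5 lower: the nuclear mediator Lef1 was higher by 3.87 ± 0.13 and the antagonist-family gene Dkk3 by 3.40 ± 0.11, while the agonist Rspo1 was lower by 5.28 ± 0.17 on the log2 scale. In the Notch pathway 7 of 13 were higher and 2 lower. The receptor Notch1 was higher by 2.21 ± 0.10 and the Notch-modifying Lfng was lower by 3.16 ± 0.31.

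Growth factor and guidance genes split in both directions, as did all genes, at 19.5% higher and 21.0% lower. Of 22 tested FGF, PDGF, IGF and ErbB genes, 10 were higher and 9 lower. The growth factor Igf1 was higher at 275 to 415 CPM against 39.4 to 56.6 CPM, and the FGF feedback inhibitor Spry1 was lower by 2.06 ± 0.09 on the log2 scale. Of 22 guidance genes, 11 were higher and 8 lower, with the netrin receptor Unc5c higher by 3.14 ± 0.11 and the semaphorin Sema3d lower by 3.04 ± 0.13 on the log2 scale. Among retinoic acid genes 3 of 11 were higher and 6 lower. Dhrs3, which limits retinoic acid, was lower by 3.60 ± 0.12.

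Positional and other-lineage genes gave mixed counts, set beside 19.5% of all genes higher and 21.0% lower. On the neural crest list 7 of 14 tested genes were higher and 4 lower. The higher ones included Msx1, Msx2, Twist1 and Hand2, which stood on the cushion list too. Tbx5, a T-box factor of the atria and left ventricle, was higher by 2.37 ± 0.13, and Hoxb2 was lower by 2.80 ± 0.23 on the log2 scale. Of 15 smooth muscle and pericyte genes, 5 were higher and 7 lower, with the muscle intermediate filament gene Des lower by 2.60 ± 0.13.

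Many cell cycle genes were lower in the members than in fibroblast-type cells, where 21.0% of all genes were lower and 19.5% higher. Of 18 G1/S genes, 12 were lower and none higher (median −0.43 on the log2 scale), and of 18 G2/M genes 10 were lower and none higher (median −0.30). The summed G2/M level was lower in the members in het 1, het 2 and KO 2 but not in KO 1, at 3283 CPM against 3250 CPM without TMM scaling. Cdt1, which licenses replication origins, stood at 14.1 to 19.5 CPM against 26.8 to 33.2 CPM. With cells thinned to 5000 UMIs, 31.4 ± 3.8% of members had at least 10 G2/M UMIs, against 42.0 ± 4.5% of fibroblast-type cells (SD, n = 4). The share was lower in the members in 4 of 4 libraries, by 10.6 percentage points, and carries no test because the limit of 10 UMIs was chosen after the values were seen. The median depth of fibroblast-type cells was higher in every library, at 21304 to 37256 UMIs.

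**Figure D3:**
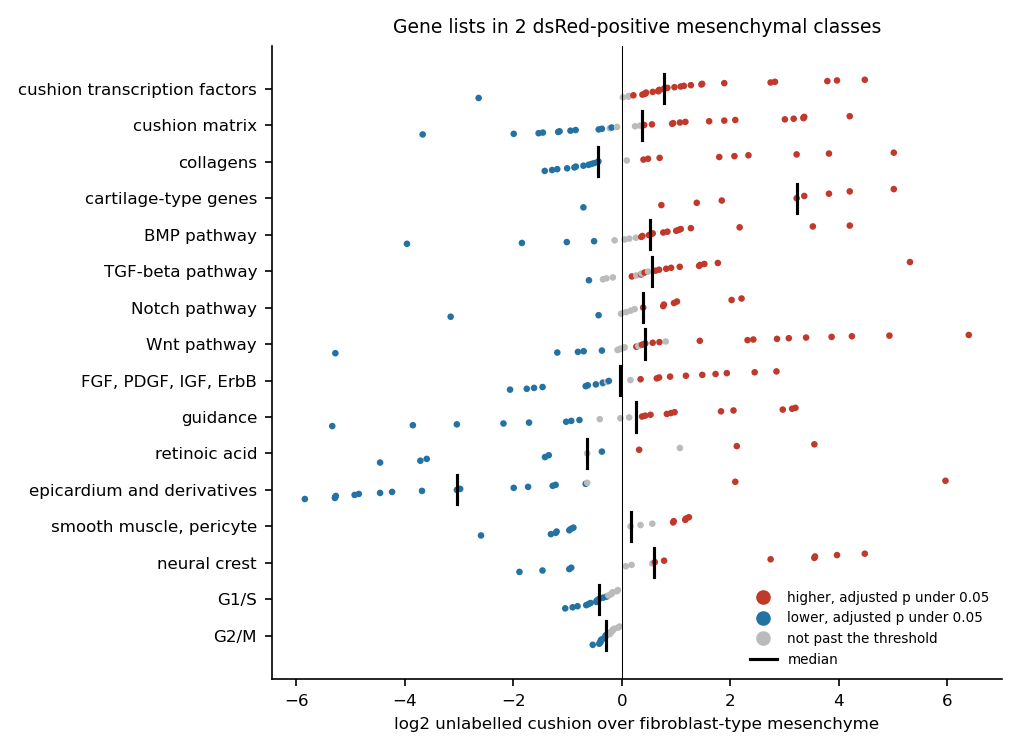
Log2 difference between unlabelled cushion mesenchyme and fibroblast-type mesenchyme for each tested gene of 16 lists, leaving out genes of the gates. Red and blue points passed the adjusted threshold as higher or lower, grey ones did not, and black bars are medians, which lie highest for cartilage-type genes (3.23) and lowest for epicardium and derivatives (−3.04).

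Against EGFP-labelled cushion cells Meox1 did not pass the threshold. Postn, Sox9, Prrx1 and Prss35 differed by −0.12 to 0.13 on the log2 scale. Both classes were cut by the same limit on these genes, so these values carry no test. Meox1 stood at 195, 333, 207 and 295 CPM in the members and 209 to 381 CPM in labelled cells, so the classes overlapped, and the log2 difference was −0.12 ± 0.09 (edgeR adjusted p = 0.90). Gata4 differed by −0.12 ± 0.09 (adjusted p = 0.88). A p that misses the threshold does not show that the classes are alike. On data simulated for this comparison, with the same spread for every gene, the test recovered 89 of 100 better-counted genes changed by 1 on the log2 scale.

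Apart from the reporters, 9 genes were higher in the members (10 with dsRed, 0.0924% of genes tested) and 13 were lower (14 with EGFP, 0.129%). Of these, 7 and 10 met the rule for naming. Mest, an imprinted gene of embryonic mesoderm (chr6:30723547-30748465), stood at 447, 228, 309 and 323 CPM in the members and 312, 154, 155 and 193 CPM in labelled cells of the same libraries. It was higher in the members in 4 of 4 libraries, by 0.69 ± 0.08 on the log2 scale (edgeR adjusted p = 3.4e-04). Tpm2, a tropomyosin of contractile cells, was higher by 0.80 ± 0.11 (125, 177, 133 and 187 CPM against 99.9, 86.8, 62.6 and 122 CPM). Col4a1 and Col4a2, the paired chains of basement membrane collagen, were higher by 0.42 ± 0.07 and 0.37 ± 0.07. Tbx18 (chr9:87702800-87731260) was higher by 1.18 ± 0.20, at 40.8, 40.8, 20.5 and 34.3 CPM against 29.8, 18.9, 6.59 and 9.39 CPM, the last 4 values resting on 14, 43, 4 and 9 UMIs. Synpo2, an actin-binding protein gene, and Chst2, a sulfotransferase gene, were higher by 0.99 ± 0.18 and 0.78 ± 0.13.

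The genes lower in the members included signalling and matrix genes. Ptn, the secreted heparin-binding factor pleiotrophin, stood at 838, 1681, 904 and 1544 CPM against 940, 2042, 1154 and 2000 CPM in labelled cells, lower in each library and by 0.30 ± 0.05 on the log2 scale (edgeR adjusted p = 0.018). Id2, a BMP-responsive inhibitor of helix-loop-helix factors, was lower by 0.42 ± 0.07, at 264 ± 51.9 CPM against 351 ± 64.3 CPM (SD, n = 4). Calcrl, the receptor that binds adrenomedullin, was lower by 0.71 ± 0.13 and the fatty acid binding protein gene Fabp3 by 0.79 ± 0.12 on the log2 scale. Htra1 (lower by 0.43 ± 0.08), Matn4, Spint2, Gyg, Auts2 and Malat1 completed the named genes, and Malat1 had a difference of −0.12 ± 0.02. Fbln5, Actg2, Btn1a1, Gimap6 and Neil2 also passed the adjusted threshold but did not meet the level or the library rule, and were named after their values were seen.

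The count of called genes in the label comparison depended on single libraries. It was 43 without het 1, 13 without het 2, 8 without KO 1 and 10 without KO 2. DESeq2 called 5 genes, and without the library block 2 genes were called. Mest and Tpm2 passed in 12 of the 14 alternatives, while Col4a2 passed in 3 and Matn4, Gyg and Spint2 in 4 each. The labelled class rested on 37 to 49 cells in 3 of the libraries. Its median depth was 7983, 13545, 12324 and 22053 UMIs, against 15197, 15055, 14102 and 23409 in the members. With at least 10000 UMIs per cell 8 genes were called, 7 of them among the 24.

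**Figure D4:**
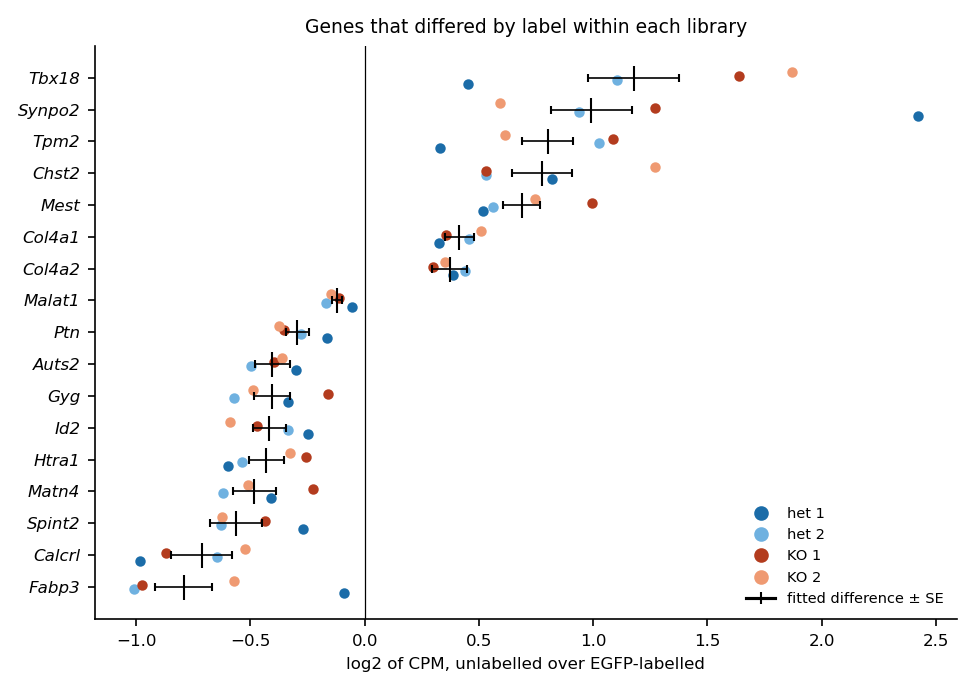
Log2 of CPM in unlabelled over EGFP-labelled cushion cells for the 17 genes named in that comparison; points are the 4 libraries and black marks the fitted difference ± SE. Each gene has all 4 points on one side of 0.

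Lists showed little by label, a comparison with 0.0924% of all genes higher and 0.129% lower. Of 20 tested collagen genes 2 were higher and none lower, with a median of 0.08 on the log2 scale against −0.004 over all genes. In the smooth muscle list 1 of 15 was higher (Tpm2) and 11 stood above 0. In the cushion factor list 1 of 28 outside the rule was lower (Id2), and 21 stood below 0. No G1/S gene passed, although 17 of 18 stood above 0 with a median of 0.22. Without KO 2 these became 13 of 18 and 0.06. Members with contractile transcripts (at least 5 UMIs of Acta2 and Tagln after thinning) made up 13.7 ± 3.3% against 13.1 ± 2.5% of labelled cells (SD, n = 4), a difference smaller than the spread between libraries.

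The Gata4 locus was read in each class, since the study deletes Gata4. Gata4 (chr14:63198922-63271692, minus strand) stood at 155 and 142 CPM in the members of the het libraries and 175 and 139 CPM in those of the KO libraries, without TMM scaling. The groups overlapped, with a log2 difference of 0.05 ± 0.18 (edgeR adjusted p = 0.9999). In EGFP-labelled cells, whose reporter had recombined, Gata4 stood at 180 and 149 CPM in het and 166 and 172 CPM in KO, so the counted Gata4 transcripts were not lower in KO there either. The fibroblast-type values were 107 and 81.8 CPM for het and 110 and 78.4 CPM for KO. This count reads transcripts of the whole gene, so it checks deletion only as far as deletion lowers the counted part. The added sequence FloxGata4 had 0 UMIs in every class and library, and FloxGata4_ctrl had 15, 20, 17 and 20 UMIs in the members, and the labels do not say what either holds. Neil2, a DNA repair gene beside Gata4 (chr14:63182443-63193856), stood at 5.53, 5.02, 9.66 and 3.83 CPM in the members and at 10.3, 10.4, 22.2 and 35.0 CPM in labelled cells, without TMM scaling. It was lower in the members in 4 of 4 libraries, by 1.74 ± 0.34 on the log2 scale (edgeR adjusted p = 0.031), on 5, 24, 13 and 34 UMIs in the labelled class. Whether the KO effect on Neil2 differed between the classes was tested, and the difference was −1.27 ± 0.62 (edgeR adjusted p = 0.9999). On data simulated for that test, with the same spread for every gene, 13 of 100 better-counted genes changed by 1 on the log2 scale were recovered. Of those changed by 2, 83 of 100 were recovered.

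No gene passed the adjusted threshold between KO and het members in the comparison of 2 against 2 libraries without a block. Of 13002 genes, 0 were called (0.0%, edgeR quasi-likelihood test, 2 libraries against 2), with 186 at an unadjusted p under 0.05. DESeq2 called 0, with 56 at an unadjusted p under 0.05. On simulated data of this design the test recovered 99 of 100 genes changed by 2 and 49 of 100 changed by 1 on the log2 scale. The simulation gave every gene the same spread beyond counting error and no effect shared by replicates. Only genes with higher counts were changed, so these shares do not cover all genes tested. With 1 library left out, which leaves a group with a single library assumed to vary like the other group, 47, 28, 50 and 33 genes were called without het 1, het 2, KO 1 and KO 2.

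The genes named by lowest p are values and not changes. Cxcl12, a chemokine that guides vessels and mesenchyme (chr6:117168535-117181367), stood at 20.4 and 25.4 CPM in het members and 1.94 and 7.15 CPM in KO members. The groups did not overlap, with a log2 difference of −2.22 ± 0.38 and an edgeR adjusted p of 0.11. Mstn, the growth inhibitor myostatin, stood at 22.0 and 42.1 CPM against 9.70 and 12.8 CPM (−1.56 ± 0.29, adjusted p = 0.19). Sfrp2, a secreted Wnt modulator, stood at 129 and 186 CPM against 87.8 and 90.01 CPM (−0.84 ± 0.20, adjusted p = 0.55). Chmp2b and Rrad also lay lower in both KO libraries. In the other direction, Abcc9, a subunit of a potassium channel, stood at 22.0 and 17.9 CPM in het and 44.6 and 32.5 CPM in KO members (0.98 ± 0.23, adjusted p = 0.60). Mcam, Msmo1, Krt79 and the matrix gene Tnc, at 44.6 and 57.5 CPM against 70.9 and 92.2 CPM, were likewise apart by group without passing. Over all genes, libraries of the groups did not overlap in 11.4% of genes with KO higher and 11.7% with KO lower. Over the alternative settings the log2 difference of Cxcl12 was −3.58 to −1.70. It missed the adjusted threshold in 7 of them and passed in 6, fits with a single library in a group among the latter.

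Several lists had members apart by group. On the macrophage list all 9 tested genes stood below 0, none called, with a median of −2.69 on the log2 scale, and in 8 of 9 both KO libraries lay below both het libraries, against 11.7% of all genes. Fcer1g, an immune receptor chain of macrophages, stood at 6.29 and 12.6 CPM in het and 1.66 and 1.49 CPM in KO members. The 12 macrophage genes summed to 51.2 and 95.9 CPM in het and 21.0 and 11.5 CPM in KO members, and 684 of the 784 such UMIs in het 2 came from 4 members, 351 of them from 1. Without barcodes holding at least 5 macrophage UMIs (5, 4, 0 and 1 members), 3 macrophage genes were tested and their median was −0.13. Their part in the values of this list beyond these counts was not tested. The erythroid list had a median of −0.58, which was 0.31 without the globin-rich barcodes, 0.89 without the macrophage-rich ones and 0.92 without het 1.

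Other lists had medians nearer 0. On the dissociation stress list 9 of 14 tested genes stood below 0 (median −0.15). Both KO libraries lay below both het libraries in 6 of 14, against 11.7% of all genes. The immediate-early gene Fos stood at 641 and 598 CPM in het and 554 and 485 CPM in KO members. The part of dissociation stress in the other values was not tested. In the Notch list 9 of 12 stood above 0 (median 0.25), and in 4, the target Hes1 among them, both KO libraries lay higher, against 11.4% of all genes. In the neural and Schwann list both KO libraries lay higher in 2 of 5 (median 0.30), against the same 11.4%. Of 14 tested epicardial genes outside the rule, 11 stood below 0 (median −0.42, or 0.18 without het 2, where 9 of 13 stood above 0), with Tbx18 at 40.4 and 40.3 CPM against 20.2 and 34.1 CPM. In the cushion factor list 18 of 29 stood below 0 (median −0.07). Osr1, a zinc-finger factor of mesenchyme, stood at 6.81 and 10.9 CPM against 1.66 and 1.34 CPM, with an adjusted p of 0.11. In the cushion matrix list 16 of 31 stood below 0, with the elastic fibre gene Fbln5 at 38.3 and 96.2 CPM against 27.2 and 38.7 CPM. In the Wnt list the feedback inhibitor Nkd1 stood at 142 and 124 CPM against 103 and 94.9 CPM. The ephrin gene Efnb2 stood at 18.9 and 18.9 CPM against 11.4 and 12.4 CPM, with an adjusted p of 0.9999. No member of these lists was called.

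**Figure D5:**
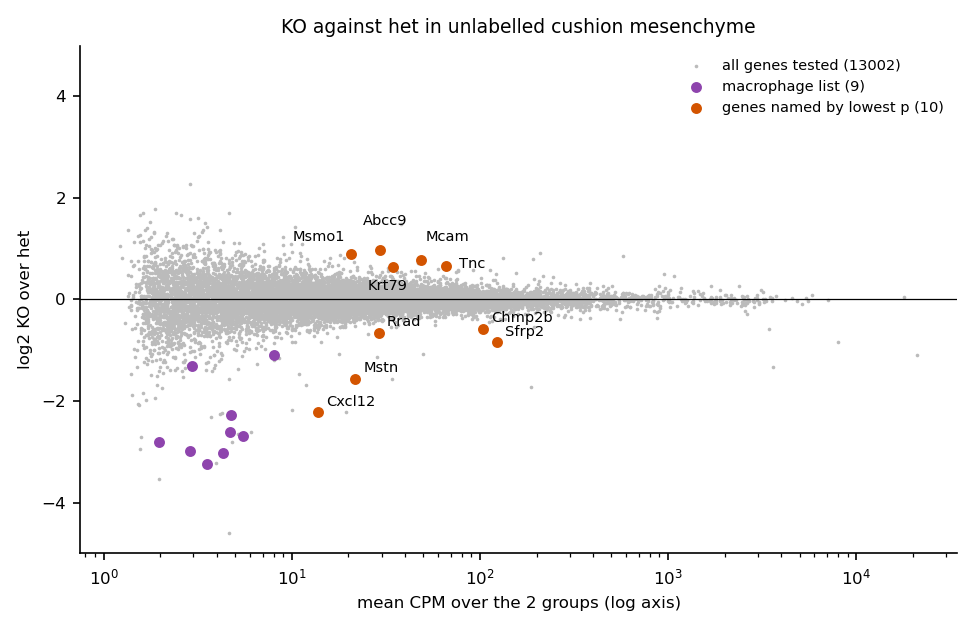
Log2 of KO over het against mean CPM (log axis) for 13002 genes tested in unlabelled cushion mesenchyme. The 10 genes named by lowest p (orange) and the 9 tested macrophage genes (purple, all below 0) are marked, and none passed the adjusted threshold.

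The KO effect differed between unlabelled and EGFP-labelled cushion cells in 4 of 11594 genes (0.0345%, 2 in each direction or 0.0173%, edgeR interaction test, library as a block), which are given in the closing part. Gata4 was not among them, with a difference of 0.01 between the effects (adjusted p = 0.9999).

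The share of unlabelled cells was compared between the groups. Of cushion cells that the reporter assigned to either class, 71.3% (95% Wilson interval 63.8 to 77.7) were unlabelled in het 1, 76.5% (73.0 to 79.6) in het 2, 81.4% (76.2 to 85.6) in KO 1 and 87.4% in KO 2. Both KO libraries lay above both het libraries, by 10.5 percentage points in the mean, with a two-sided exact permutation p of 0.333, the smallest that 2 against 2 libraries allow. Left out were 220, 145, 178 and 76 cells with under 5 reporter UMIs and 46, 82, 111 and 23 mixed cells. The same limit of 5 UMIs held for dsRed (536 to 708 CPM in members) and EGFP (3005 to 3831 CPM in labelled cells). With cells thinned to 5000 UMIs the shares fell to 39.1, 50.8, 52.0 and 59.7%, so they depended on depth and on that limit. The part of depth in the difference between the groups was not tested. A stricter reporter gate gave 44.2% in KO 1 and 85.5% in KO 2, and the het libraries lay between them. Members made up 0.569, 6.31, 2.28 and 4.93% of cells past the quality limits. The mean was 0.17 points higher in KO (exact permutation p = 1), −2.71 points without het 1 and −1.16 without KO 2. In het 1, 3924 of 20048 quality-passing barcodes had under 1% cardiomyocyte UMIs, against 4412 of 7621 in het 2.

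The members varied among themselves, and the sets described next were chosen after the values were seen, so they carry no test. Over 2571 genes with a mean of at least 0.3 UMIs after thinning, the median of the lowest variance-to-mean ratio across libraries was 1.01. Beyond globin, Malat1, histone and immediate-early genes, Sfrp2 had one of the highest ratios (at least 8.02 in every library). Cycling genes such as Cenpf (5.43), Top2a (4.89) and Mki67 (4.36), and contractile genes such as Tagln (4.18), also stood high.

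Sfrp2 marked a small set: 4.81, 11.6, 6.16 and 7.81% of members had at least 3 Sfrp2 UMIs after thinning, and 78.8 to 91.3% had none. The same limit was met by 6.25, 2.72, 4.44 and 8.11% of EGFP-labelled cushion cells, which were 2 to 4 cells per library. In fibroblast-type cells the share was 6.45, 3.97, 2.08 and 2.34%, so such a set was not particular to the members. Aspn, which encodes the matrix protein asporin, stood at 320, 146, 76.9 and 310 CPM in the Sfrp2 members and 4.04 to 18.6 CPM in the rest of the members. Tgfbi, Gpc3, Foxp2 and Tnc were also higher in these cells in every library. The cushion matrix gene Hapln1 ran the other way, at 0, 85.7, 92.3 and 60.0 CPM in the Sfrp2 cells and 517 to 881 CPM in the rest, and Prss35, Mest, Dpt and Col9a3 were lower in every library too. In het 1 the set held 5 cells. Tnc rested there on 1 UMI (40.0 CPM against 34.3 CPM), Foxp2 on 4, and Prss35 and Mest on 1 each.

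Contractile transcripts marked another set. At least 5 UMIs of Acta2 and Tagln were found in 9.62, 16.4, 12.3 and 16.4% of members. Ccn2, a matricellular target of mechanical signalling, stood at 380, 289, 269 and 548 CPM in these cells against 58.4 to 73.8 CPM in the rest, and Tpm2, Nes, Thbs1 and Tgfb2 were higher in every library. Col9a1 stood at 20.0, 116, 115 and 90.5 CPM against 257 to 342 CPM, and Twist1, Id2, Htra1 and Col9a3 were lower in every library. The corresponding share of fibroblast-type cells was 27.8 ± 7.9% against 13.7 ± 3.3% of members (SD, n = 4), higher in 4 of 4 libraries. By genotype the share was 14.4 ± 2.9% in KO and 13.0 ± 4.8% in het members (SD, n = 2), a difference smaller than the spread between libraries.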

How the data were processed

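The deposited matrices hold raw UMI counts per gene and barcode, made by the authors with Cell Ranger 6.0.1, per the file headers. The submitters' processing notes also name mm10 and Seurat. Per the labels the kit is given in 2 conflicting ways, so it is not named. Members were gated by the rule above in Python 3 with numpy and scipy. UMI counts were then summed per library and class, since cells are not replicates. The sums held 1990905 to 8171007 UMIs in the unlabelled class, 484232 to 2309496 in the labelled class and 1583148 to 9199473 in fibroblast-type cells. Low counts were removed by filterByExpr at a minimum count of 10 and total of 15, sums were scaled by TMM, and genes were tested with the edgeR quasi-likelihood test, adjusted by Benjamini-Hochberg over all genes tested at 0.05. KO was compared with het without a block, the classes with library as a block. DESeq2, no low-count filter, library totals, stricter gates and leaving out each library were alternatives, as were 3 filters on cells and 1 denominator added after the data were seen. Each fit was tested on simulated data with 200 changed genes. These were drawn from genes above a count limit, and every gene had the same spread and no library or replicate effect. Genes were named if past the threshold, at 20 CPM or more in the higher group and on one side in all libraries, the 10 with the largest difference per direction. For KO against het, 5 per direction of lowest p were given as values, and up to 4 members of lowest p were eligible in each of 28 lists. Gata4, its neighbours, the reporters and Meox1 were always eligible. Globin and ribosomal protein genes, mitochondrial and Y-linked genes, Xist and clone names were not. Shares carry 95% Wilson intervals. Intervals and floors (3 counts) cover counting error only. The members, lists and comparisons were chosen with earlier results of these data known. Positions come from GENCODE M21 (GRCm38), where 54349 of 55405 row identifiers matched; the annotation behind the counts is not stated. No UMI was reassigned between genes, and whether the counting used strand is not given in the sources used here.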

Additional observations from a re-analysis of the deposited data

Results flagged for a closer look

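The KO effect in unlabelled cushion cells minus that in EGFP-labelled cushion cells differed from 0 in 4 genes by a test of the difference itself (edgeR interaction test, adjusted p under 0.05), all named after their values were seen. Hba-x and Hbb-y, embryonic globin genes of red cells, differed by 3.73 ± 0.39 and 3.19 ± 0.42 on the log2 scale. Hba-x stood at 9265 and 1201 CPM in het and 3362 and 805 CPM in KO members, against 4387 and 2122 CPM in het and 211 and 63.6 CPM in KO labelled cells. Fosb, an immediate-early gene, had a difference of −0.92 ± 0.15. Its members' levels were 373 and 322 CPM in het and 377 and 249 CPM in KO, against 260 and 247 CPM in het and 489 and 373 CPM in KO labelled cells. Eln, which encodes elastin, had a difference of −1.17 ± 0.19, at 126 and 333 CPM in het and 143 and 176 CPM in KO members against 120 and 217 CPM in het and 206 and 323 CPM in KO labelled cells. Without barcodes holding at least 5% globin UMIs no gene passed (0 called, lowest adjusted p 0.11, 344 genes at an unadjusted p under 0.05).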

How the results depend on the processing

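The KO against het comparison had 0 called genes under library totals, DESeq2, the stricter mesenchyme gate, and without high-UMI, shallow, globin-rich or macrophage-rich barcodes. It had 43 without the low-count filter, 1 with the stricter reporter gate (at least 10 UMIs), 28 to 50 when 1 library was left out, and 78 with the replicate block. Whether same-numbered libraries were paired is not stated, and the deviations of het 1 and KO 1 from their group means correlated at 0.717 over 3541 genes. The label comparison had 24 called genes, 5 with DESeq2, 121 without the filter, 6 with the stricter reporter gate, 8 without high-UMI barcodes, 8 with at least 10000 UMIs per cell, 2 with no library block, and 8 to 43 with 1 library left out. The comparison with fibroblast-type cells had 5248, and 1022 with the stricter reporter gate, where 7447 genes were tested. The difference of KO effects had 4, 0 with DESeq2 (52 at an unadjusted p under 0.05), 33 without the filter, 2 and 1 with the stricter reporter and mesenchyme gates, 20 without high-UMI barcodes, 1 with at least 10000 UMIs per cell, 0 without globin-rich and 12 without macrophage-rich barcodes, 22 with the replicate block and 8 to 35 with 1 library left out. The KO minus het share of quality-passing cells was −2.71 to 3.04 points with 1 library left out and −0.140 with thinned cells. Of genes named but not called, KO minus het ranged with 1 library left out from −0.093 to 0.18 for Gata4, −0.43 to 0.84 for Neil2 and −0.40 to 0.37 for Meox1, which was 0.33 with the stricter reporter gate. Without high-UMI barcodes the label difference was 0.0075 for Malat1 and 0.0067 for Meox1. The difference of KO effects for Gata4 was −0.00652 with library totals, −0.079 with the stricter reporter gate, −0.0020 with the replicate block and −0.18 to 0.25 with 1 library left out. The cause of these changes was not tested, except that fewer genes or libraries entered by construction. The labelled class held 484232 UMIs in het 1, from 46 cells.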
